A study of Mus musculus with 4 samples.

Results

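The genes described here are 10 genes of iron and haem handling, Hmox1, Blvrb, Slc40a1, Fth1, Ftl1, Tfrc, Trf, Spic, Slc11a1 and Hpgd, out of 32934 genes listed in the series. They were chosen by name and not by a threshold on measured values, though earlier results of these data were known. All 10 were listed in each of the 4 libraries and all 10 passed the filter on low counts. The series holds single cells from popliteal lymphatic vessels (PLVs) and the adjacent saphenous vein, sequenced by a droplet method that counts unique molecular identifiers (UMIs) at the 3′ end of transcripts. Each library pooled vessels of 3 mice on a C57BL/6J background. The tdT1 and tdT2 libraries hold sorted tdTomato+ cells of Cspg4-Cre;Ai9-tdTomato mice, in which Cre is driven by the promoter of a gene of mural cells. For WT and TNF-Tg, male mice labelled as 9 months old were used, and viable cells were sorted on high light scatter. TNF-Tg mice carry a human TNF transgene and develop chronic arthritis, and the WT mice are their controls. There was 1 library per condition, so that the difference between TNF-Tg and WT has no replicate check, and condition and library preparation cannot be told apart.

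Macrophages recover iron from haem that they take up with senescent red cells. Haem oxygenase (Hmox1) opens the haem ring and releases iron, biliverdin reductases (Blvrb, Blvra) handle the pigment, ferritin (Fth1 heavy and Ftl1 light chain) stores the iron, and ferroportin (Slc40a1), the only known cellular iron exporter in mammals, returns it to transferrin (Trf) in plasma. The transferrin receptor (Tfrc) takes iron in, Slc11a1 moves divalent metals out of the phagosome, Spic is a transcription factor of red pulp macrophages of the spleen, and Hpgd breaks down prostaglandins.

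Ferritin, ferroportin and transferrin receptor transcripts carry iron-responsive elements, short hairpins with the loop letters CAGTGN. Iron regulatory proteins bind these hairpins when iron is low, which holds back translation from an element before the coding sequence and protects the transcript where elements follow it. The elements are shown because UMI counts read transcripts only, so that control of translation does not enter the values given here. Protection of a transcript by elements after its coding sequence, as in Tfrc, can enter them. GENCODE M21 transcripts (GRCm38) were searched on the sense strand for a C, 5 bases, CAGTGN and 5 bases that pair with the first 5, with G-T pairs allowed. The capitals mark the 6 loop letters. Exon numbers are counted in the first transcript found to hold the element. The Fth1 element was found in 4 transcripts, in which its exon number may differ.

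Slc40a1, 5′ UTR, exon 1, chr1:45925466-45925492, minus strand: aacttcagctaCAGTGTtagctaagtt
Fth1, 5′ UTR, exon 2, chr19:9982733-9982759, plus strand: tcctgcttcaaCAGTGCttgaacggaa
Ftl1, 5′ UTR, exon 1, chr7:45459780-45459806, minus strand: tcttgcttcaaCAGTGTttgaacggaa
Tfrc, 3′ UTR, exon 19, chr16:32631220-32631246, plus strand: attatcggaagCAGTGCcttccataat
Tfrc, 3′ UTR, exon 19, chr16:32631599-32631625, plus strand: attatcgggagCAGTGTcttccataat
Tfrc, 3′ UTR, exon 19, chr16:32631664-32631690, plus strand: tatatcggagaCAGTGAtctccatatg
Tfrc, 3′ UTR, exon 19, chr16:32631711-32631737, plus strand: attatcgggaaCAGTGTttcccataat

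These letters occurred in the 5′ UTR of 0.148% of 20916 genes and in the 3′ UTR of 0.594% of 21707 genes, and in no UTR of the other 6 genes described here. The remaining genes lie on chromosome 8 (Hmox1, 75093621 to 75100589, and Hpgd, 56294585 to 56321043), chromosome 7 (Blvrb, 27447978 to 27466144), chromosome 9 (Trf, 103204001 to 103230444), chromosome 10 (Spic, 88674772 to 88685015) and chromosome 1 (Slc11a1, 74375195 to 74386062).

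The libraries held 454 to 5488 cells and 2357031 to 68773605 UMIs, and 34.3% of the tdT1 cells had over 10% mitochondrial UMIs. Cells were assigned to gates by 6 marker genes each, none of them an iron or haem gene, and 64.2% to 84.8% of the cells of a library entered a gate. Resident macrophages show at least 4 of Lyve1, Cd209f, Chp2, Ednrb, C6 and Fcna, and Lyve1-low macrophages at most 1. The resident gate held 8, 21, 1184 and 198 cells in tdT1, tdT2, WT and TNF-Tg, and the inflammatory monocyte gate 10, 24, 96 and 551. The resident gate is a range of a score: 189 of its WT cells and 38 of its TNF-Tg cells lay at its lower edge of 4 markers, with 129 and 33 cells just outside at 3. Both stromal gates, built from markers that the study used for lymphatic muscle cells and vascular smooth muscle cells, are called Pi16 stroma and Cxcl14 stroma here, because Acta2, Myh11, Tagln and Cnn1 gave at most 22 UMIs per gate and library in them. Des, another contractile gene, gave 319, 5, 839 and 192 UMIs in the Pi16 stroma of tdT1, tdT2, WT and TNF-Tg and 2 to 17 in Cxcl14 stroma. Up to 5 barcodes were shared by any pair of libraries.

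Resident macrophages carried more of 6 of the 10 transcripts than inflammatory monocytes did, namely Hmox1, Blvrb, Slc40a1, Tfrc, Trf and Spic, and less of none. Over all 13208 genes tested, 11.2% were higher and 11.5% lower in resident macrophages by the same call (edgeR quasi-likelihood test on UMIs summed per library and gate, adjusted p below 0.01). DESeq2 called 1954 genes higher and 1011 lower in this comparison where edgeR called 1480 and 1514. Against the mean of both stromal gates 9 of 10 were higher and Fth1 was lower, beside 20.9% of all genes higher and 24.1% lower. Against Lyve1-low macrophages Slc40a1, Tfrc and Blvrb were higher, beside 2.61% of all genes higher and 1.82% lower. The median log2 difference of the 10 genes was 2.23 against monocytes, 4.46 against stroma and 1.09 against Lyve1-low macrophages. With Slc40a1 set to the 3.94-fold difference of WT given below, the median against monocytes was 2.07. The medians of all genes were 0.04, −0.08 and 0.06. Resident macrophages entered these fits with 3 libraries and Lyve1-low macrophages with 2.

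**Figure D1:**
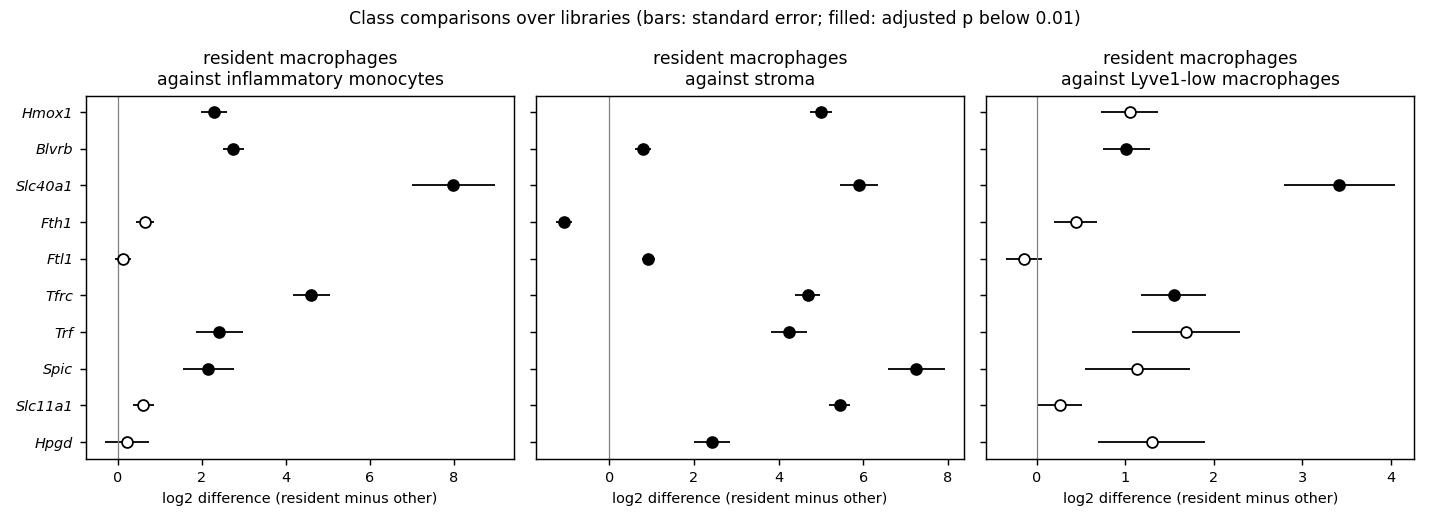
Log2 difference of resident macrophages from inflammatory monocytes, from the mean of both stromal gates and from Lyve1-low macrophages for the 10 genes (x axes; bars, standard error of the fit; filled points, adjusted p below 0.01). Fth1 is the gene left of 0 against stroma at −1.08, and the position of Slc40a1 against monocytes rests on monocytes with 0 UMIs and is no measure of size.

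Hmox1, the inducible haem oxygenase, was highest in resident macrophages in each of the libraries tdT2, WT and TNF-Tg. The tdT2 level was 275 counts per 1000000 UMIs (CPM), WT stood at 385 and TNF-Tg at 1164, and the 8 resident cells of tdT1 gave 515. Inflammatory monocytes stood at 49.4, 109 and 112 CPM in tdT2, WT and TNF-Tg. Resident macrophages were 2.30 ± 0.31 (log2, SE) above monocytes (edgeR adjusted p = 4.94e-07) and 32.0 times as high as in stroma (log2 SE 0.25, adjusted p = 7.54e-18), where the 4 libraries ranged from 10.9 to 25.2 CPM. The difference of 1.05 ± 0.32 from Lyve1-low macrophages, at 198 CPM in WT and 397 in TNF-Tg, missed the threshold (adjusted p = 0.0355) and passed it without tdT2 (adjusted p = 0.00842). Patrolling monocytes, with 20 or more cells in TNF-Tg alone, followed at 267 CPM there, with 23.5% of the 588 UMIs in 1 cell. T cells, which are not known as haem recyclers, stood at 1.49 CPM in WT.

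In TNF-Tg resident macrophages Hmox1 was 3.02 times its WT level, a log2 ratio of 1.60 with a 95% interval of 1.53 to 1.66. Intervals on ratios between these libraries cover counting error only. Of the 2852 Hmox1 UMIs in TNF-Tg resident macrophages 13.1% lay in 1 cell, against 2.39% of 6015 in WT. The TNF-Tg value of 1164 CPM lay above those of all 3 libraries without the transgene, 275 to 515 CPM. Of these, tdT1 and tdT2 were of another genotype and sort and gave 33 and 30 UMIs in 8 and 21 cells. The share of all genes with TNF-Tg above those 3 libraries was not counted. The log2 ratio was 1.90 in intermediate macrophages, 1.00 in Lyve1-low macrophages and 0.99 in neutrophils. It was 0.62 in Pi16 stroma, 0.62 in Cxcl14 stroma and 0.04 (−0.24 to 0.33) in inflammatory monocytes. In TNF-Tg, 1 cell held 21.9% of the 795 Hmox1 UMIs of intermediate macrophages. Another held 18.1% of the 722 of Lyve1-low macrophages, and the ratios without these cells were not computed. After cells had been thinned to 3000 UMIs, which left out 6 WT and 0 TNF-Tg resident cells as shallower, 66.1% of WT and 77.8% of TNF-Tg resident cells had an Hmox1 UMI (96.7% and 96.5% unthinned), against 1.47% of WT T cells. The median cell had 3.35 Hmox1 UMIs per 10000 in WT and 5.51 in TNF-Tg, and the cell at the 90th percentile 7.18 and 15.6.

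Blvrb, which reduces flavins and biliverdin, stood at 723, 638 and 750 CPM in the resident macrophages of tdT2, WT and TNF-Tg, and at 187 CPM, from 12 UMIs, in the 8 cells of tdT1. Monocytes gave 71.4, 83.3 and 95.3 CPM, and the difference was 2.76 ± 0.26 (adjusted p = 2.48e-11). Stroma was nearer, at 169 to 415 CPM over both gates and 4 libraries, and the difference of 0.79 ± 0.19 passed the threshold (adjusted p = 0.000506) but not without WT (adjusted p = 0.0118). The difference from Lyve1-low macrophages was 1.01 ± 0.26 (adjusted p = 0.00987). It missed the threshold without tdT1 (adjusted p = 0.0130), without tdT2 (0.0182) and without TNF-Tg (0.366). Between TNF-Tg and WT the log2 ratio was 0.23 in resident macrophages, −0.48 in Lyve1-low macrophages and 0.35 in Pi16 stroma, all short of 2-fold. It passed 2-fold in Ear2 phagocytes, 23 cells in TNF-Tg, at 51.1 CPM in WT and 120 in TNF-Tg (1.24), and in mast cells, 20 cells in TNF-Tg, at 51.8 and 199 CPM from 10 and 21 UMIs (1.94, 0.79 to 3.19).

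**Figure D2:**
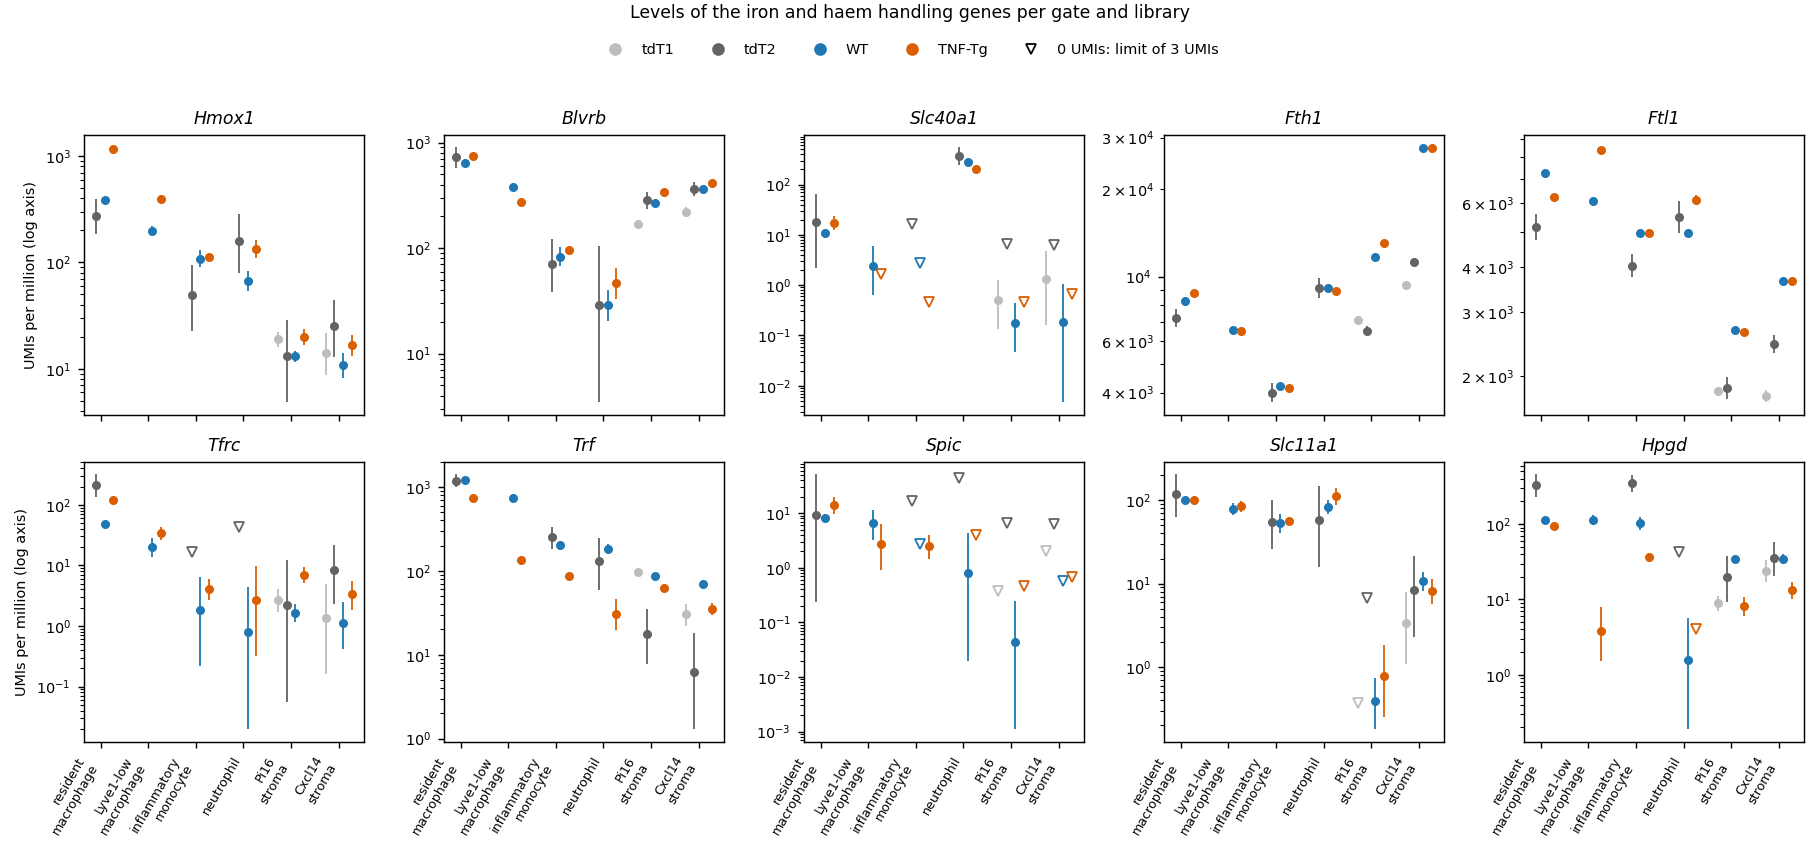
Level of each of the 10 genes (y axes, counts per 1000000 UMIs on log axes, each with its own range) in 6 gates of the 4 libraries, shown where a library held at least 20 cells of the gate. Bars are exact 95% Poisson intervals and open triangles mark 0 UMIs at the limit that a count of 0 allows, 3 UMIs; Slc40a1 stands highest in neutrophils and Fth1 in Cxcl14 stroma.

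Slc40a1, the iron exporter, was highest in neutrophils among the gates of 20 or more cells. In tdT1 no leukocyte gate but Ear2 phagocytes reached that number. There 6 Lyve1-low macrophages gave 41 UMIs (436 CPM), 100% of them in 1 cell, and 10 neutrophils gave 10 UMIs (280 CPM). Neutrophils gave 375, 279 and 208 CPM in tdT2, WT and TNF-Tg, from 26, 355 and 155 UMIs, and at 3000 UMIs 54.3% of 234 WT and 36.4% of 118 TNF-Tg neutrophils had a UMI, with 103 shallower cells left out in each library (59.6% and 43.9% of all neutrophils unthinned). Resident macrophages gave 18.3, 10.7 and 17.5 CPM, from 2, 167 and 43 UMIs (3 UMIs in the 8 cells of tdT1), and 2.46% and 5.56% of WT and TNF-Tg cells had a UMI (7.52% and 10.6% unthinned). No other gate of 20 or more cells exceeded 9.63 CPM, and WT T cells gave 0 of 671730 UMIs, which allows up to 4.47 CPM.

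Inflammatory monocytes had 0 Slc40a1 UMIs in tdT2, WT and TNF-Tg. Against the limit that a count of 0 allows in each library, the resident level was at least 3.94-fold higher in WT and at least 37.5-fold higher in TNF-Tg (adjusted p = 3.93e-08). Against Lyve1-low macrophages, with 4 UMIs in WT and 0 in TNF-Tg, the fitted difference was 3.42 ± 0.63 (adjusted p = 0.000285). It missed the threshold without TNF-Tg (adjusted p = 0.0304) and with DESeq2 (0.135). Stroma gave at most 1.34 CPM. The log2 ratio of TNF-Tg over WT was 0.71 (0.20 to 1.21) in resident macrophages and −0.42 (−0.70 to −0.15) in neutrophils, neither past 2-fold.

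Spic, the red pulp macrophage factor, was sparse. Resident macrophages gave 9.15, 8.13 and 13.9 CPM in tdT2, WT and TNF-Tg from 1, 127 and 34 UMIs, and monocytes gave 0, 0 and 2.49 CPM. The difference was 2.16 ± 0.61 (adjusted p = 0.00631) with edgeR and missed the threshold with DESeq2 (adjusted p = 0.481). It also missed with stricter gates (0.0193) and with clusters in place of gates (0.0475). Other macrophages carried Spic as well. Intermediate macrophages gave 10.1 CPM in WT and 7.22 in TNF-Tg, from 27 and 6 UMIs. Lyve1-low macrophages gave 6.45 and 2.75 CPM, from 11 and 5 UMIs, and resident macrophages were 1.13 ± 0.59 above them (edgeR adjusted p = 0.292). Patrolling monocytes of TNF-Tg stood at 14.1 CPM from 31 UMIs, beside 13.9 in the resident macrophages of that library. In both stromal gates of all 4 libraries there was 1 Spic UMI. The log2 ratio of TNF-Tg over WT in resident macrophages was 0.77 (0.18 to 1.33), short of 2-fold.

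Both ferritin chains were abundant in every gate, and their order over gates differed. Fth1 was highest in Cxcl14 stroma, at 9335, 11258, 27625 and 27614 CPM in tdT1, tdT2, WT and TNF-Tg. Resident macrophages gave 7213, 8238 and 8804 CPM in tdT2, WT and TNF-Tg, and 3403 in the 8 cells of tdT1. In WT and TNF-Tg this was below both stromal gates and the neutrophils, which gave 9178 and 8939 CPM. Resident macrophages were 1.08 ± 0.19 (log2) below stroma (adjusted p = 6.45e-06), short of the threshold without TNF-Tg (adjusted p = 0.0103). Against monocytes, at 4002 to 4204 CPM, Fth1 was 0.65 ± 0.22 higher and missed the threshold (adjusted p = 0.0167), which it passed with DESeq2 (0.000991) and without tdT2 (0.00101). In each of the libraries tdT2, WT and TNF-Tg the resident level was above the monocyte level, by 1.80, 1.96 and 2.11 times.

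Ftl1 was higher in resident macrophages than in stroma. It gave 5163, 7260 and 6245 CPM in resident macrophages of tdT2, WT and TNF-Tg (2654 in the 8 cells of tdT1) and 1767 to 3662 CPM in stroma, a difference of 0.91 ± 0.15 (adjusted p = 1.54e-06). Against monocytes the difference was 0.13 ± 0.18 (adjusted p = 0.649). Neither chain moved 2-fold with TNF-Tg in any gate with 20 cells in both libraries. The resident log2 ratios were 0.10 for Fth1 and −0.22 for Ftl1, and the largest ratio of the pair in macrophages was that of Ftl1 in Lyve1-low macrophages, 0.47 (0.44 to 0.51). Processed copies of both genes lie elsewhere in the genome, so reads may have been split between copies and the levels are uncertain by that amount.

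Tfrc, which imports transferrin-bound iron, was higher in resident macrophages than in inflammatory monocytes and stroma. Resident macrophages gave 211, 48.2 and 121 CPM in tdT2, WT and TNF-Tg, from 23, 753 and 297 UMIs, and 109 CPM in the 8 cells of tdT1. Monocytes gave 0, 1.81 and 4.05 CPM and stroma 1.13 to 8.38 CPM. The differences were 4.61 ± 0.45 from monocytes (adjusted p = 1.98e-10) and 4.69 ± 0.29 from stroma (adjusted p = 1.09e-16). From Lyve1-low macrophages, at 19.9 and 34.1 CPM in WT and TNF-Tg, it was 1.55 ± 0.36 (adjusted p = 0.00412), which missed the threshold without TNF-Tg (adjusted p = 0.0336) and with DESeq2 (0.0797).

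The TNF-Tg resident level of Tfrc was 2.51 times that of WT, a log2 ratio of 1.33 (1.13 to 1.53). The tdT2 library, without the transgene, stood higher than TNF-Tg at 211 CPM, and tdT1 stood beside it at 109, so that the 3 libraries without the transgene overlapped the TNF-Tg value. Pi16 stroma gave a log2 ratio of 2.06 (1.40 to 2.72) from 38 and 44 UMIs, and Cxcl14 stroma 1.55 (0.11 to 3.21) from 6 and 15. The ratio of 1.16 in monocytes rested on 2 and 26 UMIs, and its interval of −0.84 to 4.28 includes 0.

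Trf, the plasma carrier of iron, stood at 1190, 1200 and 748 CPM in the resident macrophages of tdT2, WT and TNF-Tg, the highest level among the gates of 20 or more cells. Smaller gates stood higher in the tdT libraries, with 1506 CPM in 7 intermediate macrophages of tdT2 and, in tdT1, 1374 CPM in 11 Cd209a dendritic cells against 937 in 8 resident macrophages. Monocytes gave 253, 202 and 87.2 CPM, a difference of 2.42 ± 0.56 (adjusted p = 0.00198). It missed the threshold without WT (adjusted p = 0.0357) and without TNF-Tg (0.0605). Stroma gave 6.29 to 98.4 CPM, and the difference was 4.24 ± 0.42 (adjusted p = 1.28e-08). Its level was lower in TNF-Tg than in WT in all 12 gates with at least 20 cells in each of these libraries and 20 UMIs over both. These gates share the same WT and TNF-Tg libraries and are no replicates. The share of all genes that were lower in every such gate was not counted. Basophils, with 3 WT cells, gave 188 CPM in WT and 202 in TNF-Tg. The log2 ratio was −0.68 (−0.75 to −0.61) in resident, −1.58 in intermediate and −2.47 in Lyve1-low macrophages, −1.21 in monocytes, −2.56 in neutrophils and −2.70 in Cd209a dendritic cells. In Cxcl14 stroma it was −1.01, or −0.83 once the median of all genes in that gate, −0.18, was subtracted. In WT, 1 cell held 20.5% of the 376 Trf UMIs of Cxcl14 stroma, and the ratio without that cell was not computed. Stroma differed as much between libraries of the same group, with 98.4 and 17.7 CPM in the Pi16 stroma of tdT1 and tdT2, beside 85.9 in WT and 62.9 in TNF-Tg.

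Slc11a1, the phagosomal metal transporter, was shared by macrophages, monocytes and neutrophils. It gave 119, 99.4 and 100 CPM in the resident macrophages of tdT2, WT and TNF-Tg and 54.9, 53.4 and 55.8 in monocytes, a difference of 0.61 ± 0.25 that missed the threshold (adjusted p = 0.0527). Neutrophils gave 57.6, 83.3 and 111 CPM, and patrolling monocytes of TNF-Tg 133. The mean of both stromal gates stood 5.44 ± 0.25 below resident macrophages (edgeR adjusted p = 2.82e-22), but these gates differed. Pi16 stroma gave 0.394 and 0.786 CPM in WT and TNF-Tg, from 9 and 5 UMIs, and Cxcl14 stroma 10.7 and 8.17. The resident level of WT was 252 times that of Pi16 stroma and 9.28 times that of Cxcl14 stroma. The log2 ratio of TNF-Tg over WT was 0.01 (−0.19 to 0.21) in resident macrophages and 0.06 (−0.34 to 0.49) in monocytes.

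Hpgd, the prostaglandin-degrading enzyme, did not separate macrophages from monocytes. Resident macrophages gave 330, 112 and 94.2 CPM and monocytes 351, 102.3 and 36.6 in tdT2, WT and TNF-Tg, a difference of 0.23 ± 0.52 (adjusted p = 0.804). Stroma gave 8.17 to 35.6 CPM, 2.43 ± 0.43 below resident macrophages (adjusted p = 5.46e-05). The difference from Lyve1-low macrophages was 1.30 ± 0.60 (adjusted p = 0.231) and, without WT, 4.40 (adjusted p = 1.92e-06). Lyve1-low macrophages held 193 Hpgd UMIs in WT and 7 in TNF-Tg, or 113 and 3.85 CPM, a log2 ratio of −4.88 (−6.21 to −3.81). The ratio was −1.48 in monocytes, −2.06 in Pi16 stroma, −1.35 in Cxcl14 stroma and −0.25 in resident macrophages. With clusters in place of gates the monocyte ratio was −0.75.

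Counted at 2-fold and with at least 20 UMIs over both libraries, 2 of the 10 genes were up and 0 down in TNF-Tg resident macrophages, where 4.55% of all genes were up and 6.51% down. In inflammatory monocytes 1 of 8 was up and 2 down, beside 6.23% and 5.0% of all genes. The gene up was Tfrc, from 2 and 26 UMIs, and its log2 ratio was 0.66 when averaged over cells. Lyve1-low macrophages had 1 of 8 up and 2 down (7.09% and 11.5% of all genes). The gene up there was Hmox1, at a log2 ratio of 1.00, with 18.1% of its TNF-Tg UMIs in 1 cell. Neutrophils had 0 of 7 up and 1 down (7.17% and 8.28%). Their Hmox1 passed 2-fold less the median of all genes (1.03), with stricter gates (1.04) and without predicted doublets (1.08). Their Blvrb passed it without doublets (1.11) and with clusters in place of gates (1.06). In TNF-Tg 1 cell held 21% of the 100 neutrophil Hmox1 UMIs, and the ratio without that cell was not computed. Pi16 stroma had 1 of 7 up and 1 down (4.04% and 5.97%), and Cxcl14 stroma 1 of 8 up and 2 down (3.96% and 11.8%). Intermediate macrophages had 2 of 9 up and 2 down (9.48% and 9.23%), Cd209a dendritic cells 0 of 7 up and 1 down (6.7% and 7.12%), and Ear2 phagocytes 1 of 7 up and 0 down (4.3% and 11.8%). Stromal cells that entered neither gate had 1 of 7 up and 2 down (4.5% and 8.13%). In the small gates, cDC1 had 0 of 3 in either direction (5.9% and 11.4%), mast cells 1 of 4 up and 1 down (6.37% and 15.8%), and T cells 0 of 2 in either direction (2.49% and 7.68%). The median log2 ratio of the 10 genes in resident macrophages was 0.16 and that of all genes 0.03. All-gene medians beyond 0.1 from 0 were −0.18 in Cxcl14 stroma, −0.16 in T cells, −0.14 in Ear2 phagocytes and 0.10 in intermediate macrophages, and less these medians the ratios of Trf in Cxcl14 stroma (−0.83) and Tfrc in intermediate macrophages (0.90) were no longer past 2-fold.

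**Figure D3:**
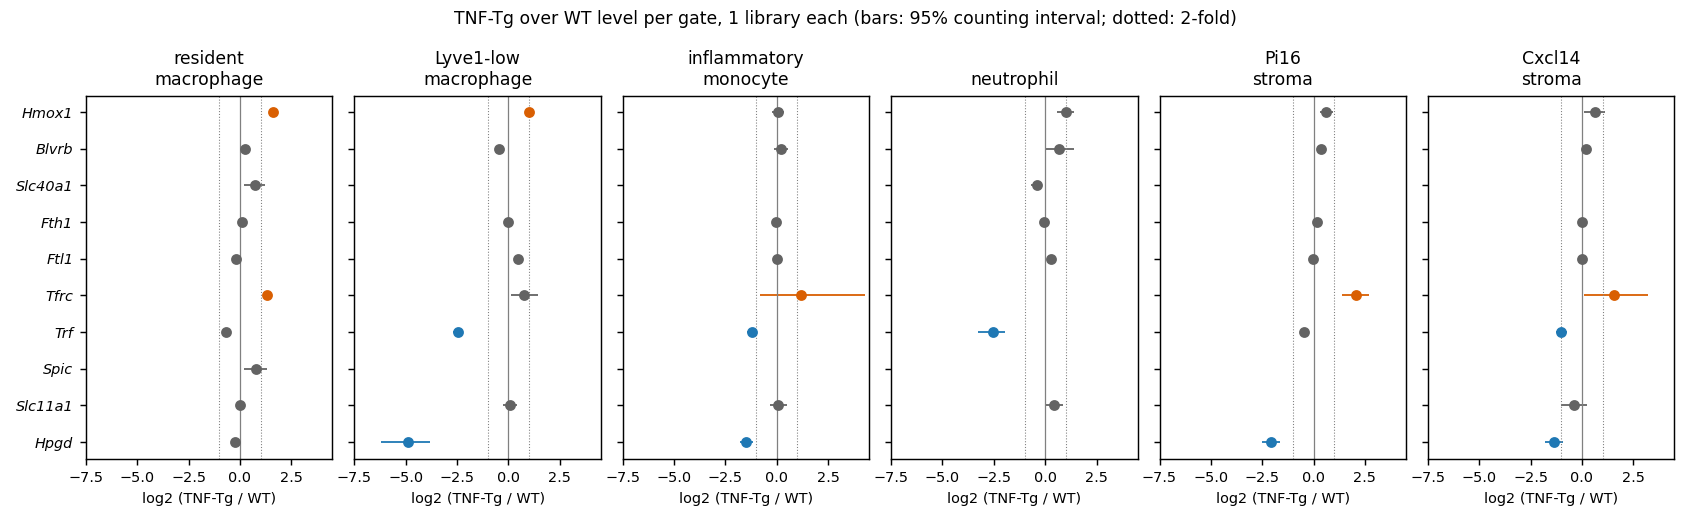
Log2 ratio of the TNF-Tg over the WT level of each gene (x axes) in 6 gates, where both libraries together held at least 20 UMIs (bars, 95% counting interval; dotted lines, 2-fold; orange, at least 2-fold up; blue, at least 2-fold down). Hmox1 stands at 1.60 in resident macrophages and at 0.04 in inflammatory monocytes, and Trf lies left of 0 in all 6 gates. The share of all genes that lie left of 0 in every gate was not counted.

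The pooled ratios of the resident gate changed with the number of resident markers that a cell showed, a split made after these values had been seen. In WT, Hmox1 stood at 335, 373 and 402 CPM in cells with 4, 5 and 6 markers. In TNF-Tg the same steps gave 1519, 1528 and 593 CPM, so that the log2 ratio was 2.18 (2.04 to 2.33), 2.03 (1.93 to 2.14) and 0.56 (0.43 to 0.69), the last short of 2-fold. The cells with 6 markers were 673 of 1184 in WT and 81 of 198 in TNF-Tg. The TNF-Tg steps held 782, 1506 and 564 Hmox1 UMIs. Of all Hmox1 UMIs in the TNF-Tg resident gate 13.1% lay in 1 cell, and its number of markers was not determined.

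Trf ran the other way. It was level in WT, at 1183, 1172 and 1215 CPM with 4, 5 and 6 markers, and stood at 482, 625 and 1020 CPM in TNF-Tg, ratios of −1.30, −0.91 and −0.25. Hpgd gave 82.2, 117 and 117 CPM in WT and 36.9, 71.0 and 149 in TNF-Tg, so that its ratio went from −1.15 (−1.92 to −0.47) at 4 markers to 0.35 (0.08 to 0.60) at 6. Tfrc was up at each step, with ratios of 1.26, 1.73 and 1.00. Whether the gate holds the same cells in both libraries was not tested.

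**Figure D4:**
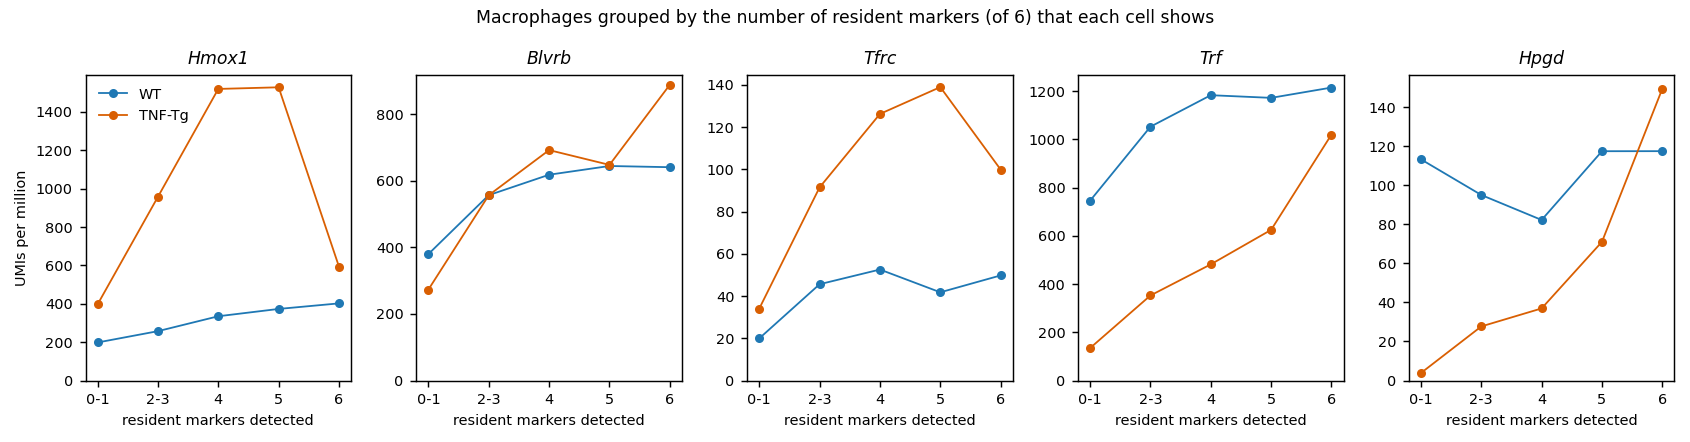
Level in counts per 1000000 UMIs (y axes, linear from 0) of 5 genes in macrophages of WT and TNF-Tg, grouped by how many of the 6 resident markers each cell showed (x axes; 4 to 6 make up the resident gate). Hmox1 of TNF-Tg drops from 1528 at 5 markers to 593 at 6, and Trf and Hpgd of TNF-Tg climb with the number of markers. Of the Hmox1 UMIs in the TNF-Tg resident gate 13.1% lay in 1 cell.

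**Figure D5:**
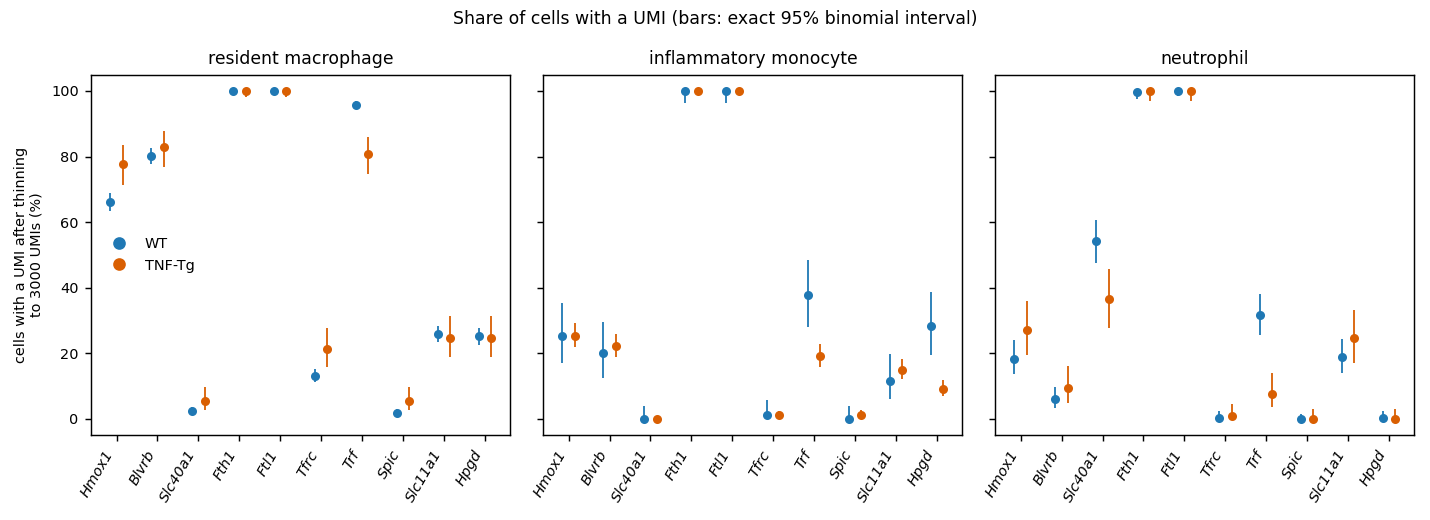
Share of cells with a UMI of each gene (y axis, percent) after cells were thinned to 3000 UMIs and shallower cells left out (103 of 337 WT and 103 of 221 TNF-Tg neutrophils, and at most 6 cells in each other group), in resident macrophages, inflammatory monocytes and neutrophils of WT and TNF-Tg (bars, exact 95% binomial interval). Slc40a1 was found in 54.3% of WT neutrophils and 2.46% of WT resident macrophages, and Trf in 95.8% of WT and 80.8% of TNF-Tg resident macrophages.

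Other genes of the pathway were read from fixed lists, which were chosen with earlier results of these data known. Of 8 tested genes of haem and haemoglobin uptake, transport and breakdown, 1 was higher and 2 lower in resident macrophages than in monocytes. Of all genes 11.2% were higher and 11.5% lower by the same call, and against stroma 20.9% and 24.1%. Cd163, the receptor for haemoglobin bound to haptoglobin, was higher, at 1593, 1728 and 1683 CPM in tdT2, WT and TNF-Tg against 16.5, 28.1 and 18.9 in monocytes (6.05 ± 0.73). Hp, haptoglobin itself, was lower (−8.02 ± 1.25), as was Lrp1, a receptor that clears haem bound to haemopexin (−0.89 ± 0.25). Against stroma 5 were higher, led by Cd163, the constitutive haem oxygenase Hmox2 (1.93 ± 0.16) and Blvra (1.77 ± 0.18), and Lrp1 was lower (−2.37 ± 0.23). Against Lyve1-low macrophages 0 of 8 passed in either direction, beside 2.61% and 1.82% of all genes.

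Of 16 tested genes of iron uptake, storage and release, 6 were higher and 1 lower than in monocytes. The shares of all genes were 11.2% and 11.5%. Cp, ceruloplasmin, a ferroxidase that works beside ferroportin, stood at 275, 240 and 130 CPM in resident macrophages and 0, 0 and 2.03 in monocytes (6.49 ± 0.77). Steap4, a metalloreductase (4.60 ± 1.05), and Slc22a17, a lipocalin receptor (4.11 ± 0.91), rested on 0 to 4 monocyte UMIs per library, and Lcn2, a siderophore binder, was lower (−5.48 ± 0.79). Cp (3.37 ± 0.61, adjusted p = 0.000825) and Ncoa4, the cargo receptor for ferritin breakdown (1.06 ± 0.24, adjusted p = 0.00272), were also higher than in Lyve1-low macrophages. Against stroma 3 genes were higher, Slc25a37 (2.43 ± 0.24), Ncoa4 (1.68 ± 0.18) and Cp (1.66 ± 0.39). Another 6 were lower, led by the reductases Steap2 (−6.21 ± 0.46) and Steap4 (−3.62 ± 0.51) and by Lcn2 (−3.50 ± 0.76). Of all genes 20.9% were higher and 24.1% lower than in stroma.

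Of 8 haem synthesis genes 0 passed against monocytes and Fech alone, which inserts the iron, was lower than in stroma (−0.74 ± 0.20). Beside the lists named here, 11.2% of all genes were higher and 11.5% lower against monocytes, and 20.9% and 24.1% against stroma. Among iron regulators 0 of 5 passed against monocytes, and Hfe, which binds the transferrin receptor, was higher than in stroma (1.95 ± 0.26). In the Nrf2 and Bach1 axis, which governs Hmox1 transcription, Srxn1 was higher (1.41 ± 0.43) and Slc7a11 lower (−4.46 ± 0.52) than in monocytes. Against stroma the repressor Bach1 was higher (0.98 ± 0.22), and Nqo1 (−2.96 ± 0.73) and Srxn1 (−1.33 ± 0.28) were lower, among 9 genes tested.

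Between TNF-Tg and WT resident macrophages, 3 pathway genes passed 2-fold among those with 20 UMIs, beside 4.55% of all genes up and 6.51% down. They were 1 of 8 genes of haem uptake and breakdown, 1 of 7 of the Nrf2 and Bach1 axis and 1 of 4 regulators, with 0 of 8 of haem synthesis and 0 of 12 of iron uptake, storage and release. Hp was up at 1.41 and 17.95 CPM (log2 ratio 3.67), Srxn1 was up at 9.16 and 19.2 CPM (1.07), and Hfe was down at 138 and 56.3 CPM (−1.29). Hp stood at 742 and 1743 CPM in the monocytes of WT and TNF-Tg and at 2501 and 2944 in their neutrophils, and the part of transcript from those cells in the macrophage values was not tested. In monocytes Uros (2.92, from 1 and 44 UMIs), Hp (1.23) and Lcn2 (1.01) were up and Alad (−1.10, from 10 and 27 UMIs, with an interval that includes 0) was down. In Pi16 stroma Slc39a14, an importer of iron that is not bound to transferrin, went from 25.3 to 166 CPM (2.72), Steap4 from 35.5 to 134 (1.91) and Heph from 1.18 to 0.16 (−2.91, from 27 and 1 UMIs). Alad (1.20), of haem synthesis, was up there, and Cd163 (−2.29), Flvcr2 (−2.40, from 19 and 1 UMIs) and Hp (−1.24) were down. In Cxcl14 stroma Slc39a14 (1.52) and Lcn2 (3.14, from 4 and 30 UMIs) were up and Cd163 (−2.58, from 21 and 3 UMIs), Slc39a8 (−1.53, from 17 and 5 UMIs), Gclc (−1.25) and Lrp1 (−1.05) were down. Resident macrophages, which carried more Cd163 than stroma, were 1184 of 5488 cells in WT and 198 of 3391 in TNF-Tg. The part of transcript from leukocytes in the stromal values was not tested.

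Over the 39 sums of library and gate with at least 20 cells, the 3 genes most like Hmox1 by Pearson correlation of log2(CPM + 1) were Rab31 (0.87), Rnpep (0.86) and Atp6v1a (0.85). Those most like Blvrb were Camk1 (0.88), Selenbp1 (0.87) and Scamp5 (0.86), and those most like Slc40a1 were Retn (0.91), Mmp9 (0.89) and Gripap1 (0.85). Among the 10 genes, Hmox1 was most like Slc11a1 (0.86) and Ftl1 (0.86), and its correlation with Blvrb was 0.46 and with Slc40a1 0.51. Sums of 1 library share its preparation and depth, so these values are descriptions without a test.

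Transcripts of other cells were read beside these levels. The 6 erythroid genes gave 755 CPM in WT resident macrophages, and 96.5% of these UMIs lay in 1 of 1184 cells. The other resident libraries gave 9.15 CPM in tdT2 and 19.2 in TNF-Tg. Leaving out the cells with 100 or more haemoglobin UMIs, of which 2 were WT resident macrophages, changed no call of the 10 genes. The 4 adipocyte markers together gave 10 UMIs in WT and 3 in TNF-Tg resident macrophages, the 5 contractile genes 22 and 8, and the 4 Schwann cell genes 368 and 33, or 23.6 and 13.5 CPM. Their part in the levels above was not tested.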

How the data were processed

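The deposited matrices hold raw UMI counts by gene and cell barcode, made by the authors in Cell Ranger on mm10. The matrix headers name version 3.1.0 for tdT1 and 6.0.1 for the other libraries, and the labels also name Seurat 4.0.3. The annotation is not given in the sources used here. The deposited matrices are separate for each library; the authors merged the tdT replicates for their own integrated analysis. The 10 genes and the gene lists were chosen with earlier results of these data known. The text names all 10 genes. Pathway genes are named where they passed the class test, at most the 3 largest per list and direction, or 2-fold with 20 UMIs in resident macrophages, inflammatory monocytes or either stromal gate, at most 3 per list, and the 3 genes most like Hmox1, Blvrb and Slc40a1 are named. A listed pathway gene is not reported here.

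Cells were gated on at least 1 UMI of 6 marker genes per gate (a compartment needs 3 of 6 and no other compartment at 3; the leading leukocyte gate needs 3 and a lead of 1, the stromal gates a lead of 2). Counts were summed over library and gate, and sums of 20 or more cells were fitted with edgeR 4.0.16 (quasi-likelihood, robust, TMM, library as a block, R 4.3.3) over 39 sums and 13208 genes, and p-values adjusted by Benjamini-Hochberg were called below 0.01. The script was tested on simulated data. DESeq2 1.42.0 was an alternative. Cells of a library share 3 pooled mice, and p-values measure the spread between these libraries and gates.

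TNF-Tg and WT, 1 library each, were compared without a test, as CPM (counts per 1000000 UMIs of the gate) with exact 95% Poisson intervals and ratios with exact conditional binomial intervals, which cover counting error only. A count of 0 was given its limit of 3 UMIs. Doublets predicted by Scrublet (scanpy 1.11.5), 0 to 137 per library, were kept and left out as an alternative, and clusters from Seurat 5.3.0 replaced the gates in another. Python 3.11.15 was used.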

Additional observations from a re-analysis of the deposited data

Results flagged for a closer look

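Hp, haptoglobin, which binds free haemoglobin, differed in direction between gates. Its log2 ratio of TNF-Tg over WT was 3.67 in resident macrophages, 3.33 in Lyve1-low macrophages and 1.23 in inflammatory monocytes, and −1.24 in Pi16 stroma. The ratio in resident macrophages rested on 22 and 44 UMIs. The difference between gates was not tested, since each condition is 1 library.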

How the results depend on the processing

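The class comparisons took the library as a block. No paired analysis of TNF-Tg and WT was possible because each condition is 1 library. Against inflammatory monocytes, the counts of genes higher and lower in resident macrophages went to 884 and 670 without the library block, the lower count to 996 with stricter gates, and leaving out 1 library gave 1012 to 1787 higher and 661 to 1340 lower. Against Lyve1-low macrophages they went to 521 and 375 with no filter on low counts and 85 and 72 without the block, the lower count to 141 at 50 cells and 117 with stricter gates, and leaving out 1 library gave 160 to 387 higher and 140 to 218 lower. Against stroma leaving out 1 library gave 1931 to 2659 higher and 2171 to 3107 lower. Where this left Lyve1-low macrophages with 1 library, its spread was assumed to be like that of the other gates, and clusters gave no such class. Counts of genes at 2-fold up and down with at least 100 UMIs were 245 and 340 in resident macrophages, 301 and 332 in Lyve1-low macrophages, 187 and 146 in monocytes, 89 and 121 in neutrophils, 273 and 338 in Pi16 stroma and 244 and 692 in Cxcl14 stroma, where subtracting the median of all genes gave 711 and 843. Hpgd against monocytes turned to −0.13 without the block and ranged from −0.20 (without TNF-Tg) to 0.75 with 1 library left out, and Ftl1 against Lyve1-low macrophages from −0.38 to 0.19 (without TNF-Tg), none of them past the threshold. The causes were not tested. Of the other class results of the 10 genes, 339 kept direction and side of the threshold, 23 lost and 11 gained the call. Without the block Trf (adjusted p = 0.0597, edgeR) and Spic (0.0218) against monocytes, Blvrb (0.0146) and Fth1 (0.0358) against stroma, and Blvrb (0.464) and Tfrc (0.144) against Lyve1-low macrophages missed the threshold. Hpgd passed against Lyve1-low macrophages without WT (log2 4.40). Averaging over cells gave a resident Slc40a1 ratio of 1.01 and a Lyve1-low Hmox1 ratio of 0.91. It also gave a monocyte Tfrc ratio of 0.66 and a Cxcl14 stroma Trf ratio of −0.80. With stricter gates the Lyve1-low Tfrc ratio was 1.05. Leaving out haemoglobin-rich cells and splitting by marker number were chosen after seeing the data. Depth limits Slc40a1 and Spic most, and for tdT2 the resident gate holds 21 cells.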
